A study of Mus musculus with 24 samples.

Results

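Fructose 2,6-bisphosphate is a signal molecule of carbohydrate metabolism. It activates phosphofructokinase-1, which commits sugar to glycolysis, and it inhibits fructose 1,6-bisphosphatase, which runs the same step backwards in gluconeogenesis. The bifunctional PFKFB proteins make it with a kinase domain and break it down with a bisphosphatase domain, and their 4 genes differ in tissue and in the balance of the 2 activities. The 8 genes of this control point examined here were Pfkfb1, Pfkfb2, Pfkfb3 and Pfkfb4, which encode the bifunctional enzymes, Tigar, which encodes a p53-inducible bisphosphatase, Fbp2, which encodes the muscle fructose 1,6-bisphosphatase, and Pfkl and Pfkp, which encode the liver and platelet forms of phosphofructokinase-1. They were listed by name, by their place in this pathway, with earlier results of these data known, and they were 8 of the 55416 genes in the count table. All 8 passed the filter on low counts, which left 16408 genes to be tested.

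The RNA came from the gastrocnemius muscle of adult C57BL/6J mice (C56BL6J in the labels) of both sexes, with no transgene and no drug treatment named in the labels. Sham mice were ambulatory, and SMC mice were kept sedentary in the small mouse cage for 8 weeks. All were fasted and then anaesthetised with ketamine and xylazine before tissue was taken. Crossing sex with housing gives 4 groups of 6 mice each, and every mouse gave 1 library. The labels do not say which mice shared a cage or a litter, so the p-values measure only the spread between these mice as labelled. Total counts per library lay between 23026627 and 36880413.

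Fast fibre markers, such as fast myosins and parvalbumin, summed to between 67386 and 162694 CPM (read counts scaled to equal library size) in each mouse, as in a fast muscle, and none of the 10 slow fibre markers was at 0 in any library. A slow fibre score, the mean log2 CPM of those 10 markers, was 1.42 in male sham replicate 4 and 1.22 in female sham replicate 7, whereas it lay between 5.09 and 7.78 in the other 22 mice. Fitted differences and relations to this score that these 2 libraries move are given below with and without them. Gastrocnemius is a mixture of fibres and other cells, and fewer cells of a type cannot be told apart from less RNA per cell in these data.

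Per kilobase of exon, Pfkfb3, the inducible isoform whose kinase activity far exceeds its bisphosphatase activity, had the highest level of the 8 genes, with a mean over the 24 mice of 87.9 CPM per kilobase (range 21.6 to 192). Tigar followed at 28.6 (19.4 to 36.6), then Fbp2 at 22.5 (11.3 to 45.0), Pfkfb1, the gene of the liver and muscle isoforms, at 15.6 (9.46 to 21.7) and Pfkfb4, first described in testis, at 7.91 (4.03 to 16.1) CPM per kilobase. The low end of the order was Pfkfb2, the heart isoform, at 1.57 (1.05 to 2.16), Pfkl at 1.28 (0.960 to 1.70) and Pfkp at 0.753 (0.420 to 1.24) CPM per kilobase. Most steps in this order were seen within single mice: Pfkfb3 lay above Tigar in 23 of 24 mice, Pfkfb1 above Pfkfb4 in 23, Pfkfb4 above Pfkfb2 in 24 and Pfkl above Pfkp in 24. The ranks of Tigar over Fbp2 (18 of 24 mice), Fbp2 over Pfkfb1 (21 of 24) and Pfkfb2 over Pfkl (20 of 24) were less firm. Ranges over the 24 mice overlapped for every pair of neighbours in the order except Pfkfb4 and Pfkfb2. Exon length is the same for every mouse, so these counts of mice do not check its part in the order. By CPM not divided by length, group means were 24.1 to 40.5 for Fbp2 (1469 bases) and 55.4 to 74.4 for Pfkfb1 (4017 bases). Pfkp (13401 bases) had a higher mean CPM than Pfkl (6675 bases) in each group except male sham. There the means were 8.83 and 8.95 CPM, and in female sham 12.6 and 9.33 CPM.

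The 2 phosphofructokinase-1 genes of the set were a trace of their family. Pfkm, the muscle form, had 863 CPM per kilobase and made up 99.8% of the 3 genes' level per kilobase (SD 0.0602 percentage points, n = 24), while Pfkl made up 0.151% and Pfkp 0.0891%. By CPM not divided by length the order of the 2 minor forms was reversed, with 0.301% for Pfkl and 0.356% for Pfkp. Likewise Fbp2 made up 99.8% of the level of the 2 fructose 1,6-bisphosphatase genes, and Fbp1, the liver form, had 0 to 25 reads per library and did not pass the filter.

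Within the Pfkfb family Pfkfb3 held most of the level per kilobase, 74.4% ± 12.3 (SD, n = 24), followed by Pfkfb1 with 16.2% ± 8.04, Pfkfb4 with 7.87% ± 4.52 and Pfkfb2 with 1.57% ± 0.555. The share of Pfkfb3 was 72.7% ± 10.3 in male sham, 82.2% ± 3.75 in male SMC, 65.1% ± 16.96 in female sham and 77.7% ± 9.79 in female SMC (SD, n = 6 each). It ranged from 36.2% in female sham replicate 7 to 90.7% in a female SMC mouse, and it was the largest share in every mouse except that sham female, where Pfkfb1 took 36.4%. By CPM not divided by length Pfkfb3 held 82.5% ± 9.86 and Pfkfb1 9.89% ± 5.70 (SD, n = 24). On that scale Pfkfb3 was the largest share in every mouse, at 49.0% or more, and Pfkfb1 held at most 26.2%. These shares were not tested between groups.

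**Figure D1:**
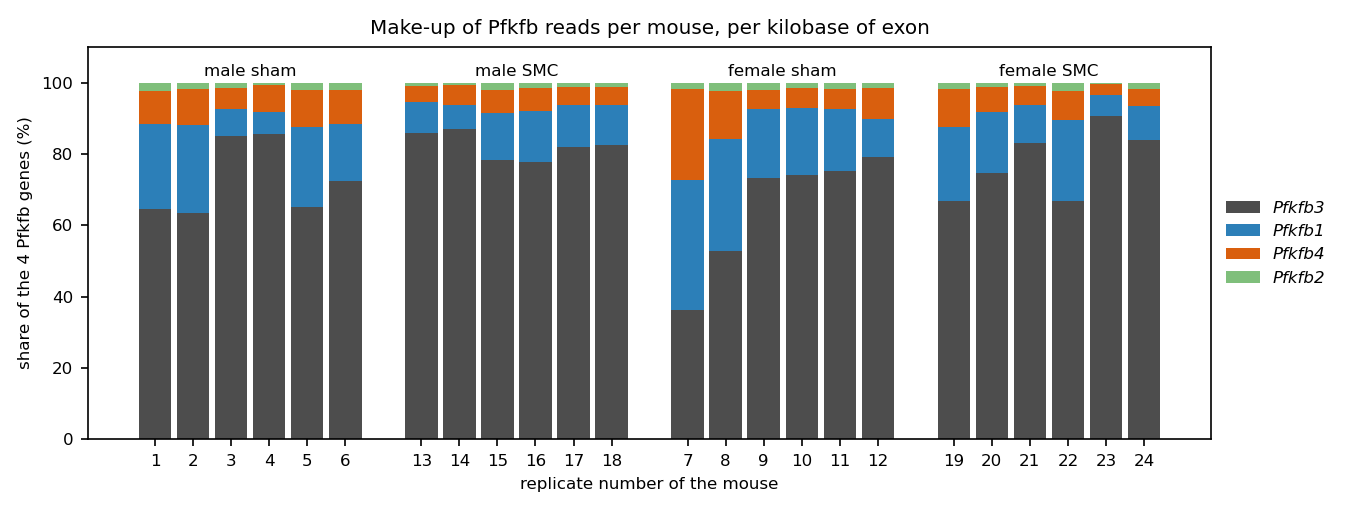
Share of each Pfkfb gene in the summed level of the 4 genes per kilobase of exon (y axis, %), with 1 stacked bar per mouse (x axis, replicate number) and the mice set out by group. Pfkfb3 held between 36.2% and 90.7% of the family, and Pfkfb2 never exceeded 2.39%.

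The effect of the cage was taken within each sex from the edgeR quasi-likelihood fit of all 24 libraries. P-values were adjusted by Benjamini-Hochberg over all 16408 genes, and a gene was called when its false discovery rate (FDR) was under 0.05. In males 0 of the 8 genes were called, and the background over all tested genes was 0.0%. None had an unadjusted p under 0.05, against 11% of all genes, and 4 were above and 4 below 0 (median log2 fold change -0.08, against -0.0044 over all genes). In females 0 of 8 were called (background 0.341%), and 3 of 8 had an unadjusted p under 0.05, against 12.5% of all genes, with 2 above and 6 below 0 (median -0.17, against -0.01 over all genes). Tigar was higher in female SMC than in female sham among these 3, and Pfkp and Pfkfb1 were lower. With the mean of the male and female differences 0 of 8 were called (background 2.36%) and 4 of 8 had an unadjusted p under 0.05 (17.5% of all genes). DESeq2 likewise called 0 of the 8 genes in each of these 3 comparisons, and limma voom with sample weights called 0 in either sex and 1, Tigar, for the mean of both sexes. The difference of the response between the sexes gave 0 calls by edgeR, DESeq2 and voom (background 0.0%) and 1 gene, Pfkp, with an unadjusted p under 0.05 (5.13% of all genes). In sham mice 1 of 8 genes, Tigar, was called between males and females (background 1.97%), and 2 of 8 had an unadjusted p under 0.05 (15.5%). In SMC mice 0 of 8 were called between the sexes by edgeR, DESeq2 and voom (background 1.03%), and 1 of 8 had an unadjusted p under 0.05 (10.5%). The 6 mice of 1 group lay wholly apart from the 6 of the other for 0 of the 8 genes in any of the 4 pairs of groups, where 0.902% (SMC, males), 1.03% (SMC, females), 1.13% (sex, sham) and 2.08% (sex, SMC) of all genes did so. The sham mice enter both the SMC comparisons and the sex comparison, so these are not independent.

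**Figure D2:**
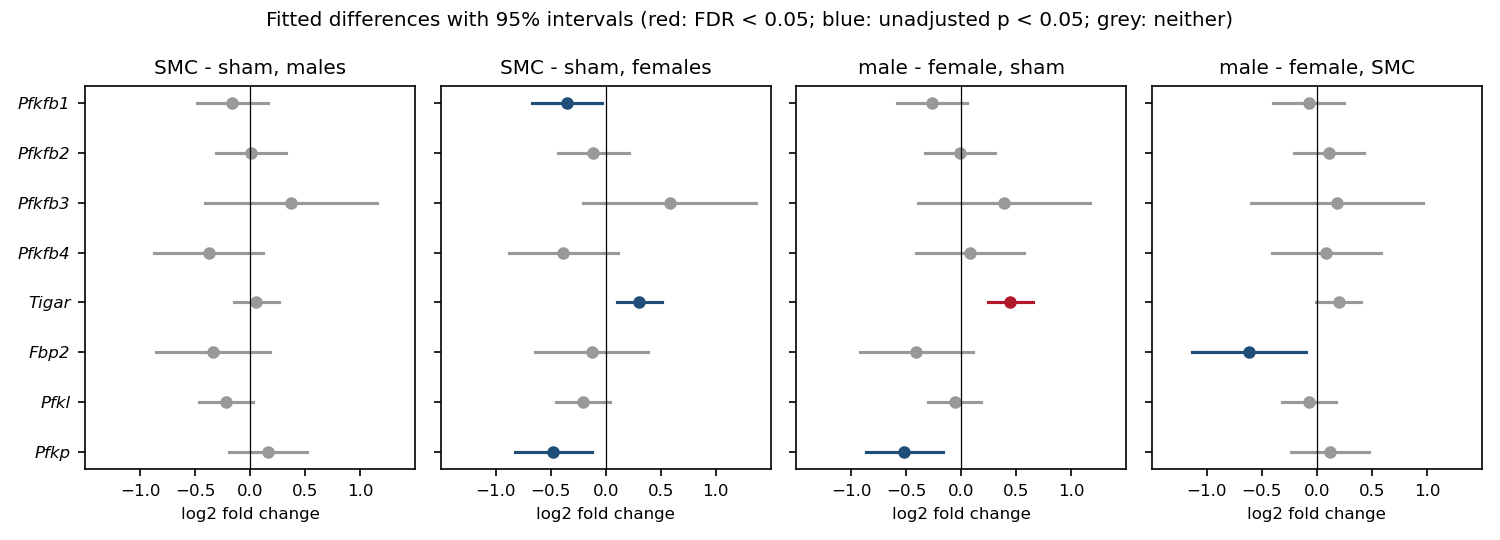
Fitted log2 fold change (x axis) of the 8 genes (y axis) with its 95% interval in 4 comparisons, red at an FDR under 0.05, blue at an unadjusted p under 0.05 and grey otherwise. Tigar in sham males against sham females, at 0.45, is the 1 red point.

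Tigar (ENSMUSG00000038028) encodes a fructose 2,6-bisphosphatase that lowers the activator and so directs sugar towards the pentose phosphate pathway. In female sham its lowest, median and highest levels were 71.0, 78.5 and 112 CPM, and in female SMC 88.0, 101 and 118 CPM. Female sham replicate 7 was the mouse at 112 CPM, and the other 5 sham females, at 71.0 to 86.0 CPM, all lay below the lowest SMC female. The means were 83.6 ± 14.95 and 103 ± 11.7 CPM (SD, n = 6 each). The log2 fold change was 0.31 (SE 0.099, 95% interval 0.10 to 0.51, 1.24-fold), with an unadjusted p of 0.00507 and an FDR of 0.160 by edgeR, which missed the threshold. Without female sham replicate 7 it was 0.41 with an FDR of 0.0326, and without both libraries of low slow fibre score 0.41 with an FDR of 0.0169 (both by edgeR), so the call turned on 1 sham female.

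In males the Tigar levels of the groups overlapped throughout. Male sham spanned 103, 111 and 134 CPM (lowest, median, highest) and male SMC 105, 117 and 133 CPM, with a log2 fold change of 0.06 (95% interval -0.15 to 0.26, edgeR FDR 0.892). The male response minus the female response was -0.25 (SE 0.14, unadjusted p 0.0874, edgeR FDR 0.955), and -0.31 (edgeR FDR 0.529) without the 2 libraries, so a difference between the sexes in the response was not shown. For the mean of both sexes the log2 fold change was 0.18 (edgeR FDR 0.170), 0.25 without the 2 libraries (FDR 0.0166) and 0.20 by voom (FDR 0.0490).

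Between the sexes in sham mice Tigar was the 1 gene of the set past the threshold. Sham males exceeded sham females by 1.36-fold, a log2 difference of 0.45 (SE 0.099, 95% interval 0.24 to 0.65, edgeR FDR 0.0181). All 6 sham males lay above the female median, and 3 of 6 lay above the highest female, replicate 7. This difference stayed past the threshold when any 1 of the 24 libraries was left out, with log2 differences from 0.40 to 0.55 and edgeR FDR values up to 0.0396. Among SMC mice the male excess was 0.20 (95% interval -0.01 to 0.40, edgeR FDR 0.498), with 2 of 6 males above the highest female.

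Pfkp (ENSMUSG00000021196), the platelet form of phosphofructokinase-1, had a fold change of the opposite sign in females. Female sham spanned 7.55, 13.1 and 16.6 CPM (lowest, median, highest), with replicates 8, 11 and 12 at 15.6, 16.2 and 16.6 CPM, and female SMC spanned 7.32, 9.38 and 10.1 CPM. All 6 SMC females lay below the sham median, although the ranges overlapped. The means were 12.6 ± 3.98 and 9.07 ± 1.06 CPM (SD, n = 6 each), a log2 fold change of -0.48 (SE 0.17, 95% interval -0.83 to -0.13, unadjusted p 0.00964, edgeR FDR 0.208). With 1 library left out, this change ran from -0.58 (without female sham replicate 7) to -0.37 (without female sham replicate 12). The edgeR FDR over those fits ran from 0.0847 to 0.376. In males the values were 5.63, 8.89 and 11.04 CPM in sham and 8.54, 9.72 and 11.4 CPM in SMC, a log2 fold change of 0.16 (95% interval -0.19 to 0.51, edgeR FDR 0.794). The male response minus the female response was 0.64 (95% interval 0.14 to 1.13, unadjusted p 0.0140), with an edgeR FDR of 0.926.

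Sham females had the highest mean Pfkp level of the 4 groups, and sham males lay below them by 0.52 on the log2 scale (unadjusted p 0.00551, edgeR FDR 0.116). Without the 2 libraries of low slow fibre score this difference was -0.61 (edgeR FDR 0.0457), and without female sham replicate 7 alone -0.62 (edgeR FDR 0.0353). The 7 fibroblast markers, among them collagens and decorin, summed to 538 to 1809 CPM (median 1297) in female sham and 630 to 975 CPM (median 849) in female SMC. By edgeR 3 of 7 were lower in SMC females at an unadjusted p under 0.05, which 12.5% of all genes had in either direction. Of the 7 markers 0 were called by edgeR (0.341% of all genes). In the sham females of high Pfkp, replicates 8, 11 and 12, the marker sum was 1715, 961 and 1632 CPM, and in replicates 7, 9 and 10, with Pfkp at 7.55, 10.7 and 9.04 CPM, it was 538, 930 and 1809 CPM. The 8 macrophage markers summed to 33.4 to 150 CPM in female sham and 57.3 to 83.8 CPM in female SMC. None of the fibroblast or macrophage markers was at 0 in any library, and their part in the Pfkp difference was not tested.

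The 250 bases upstream of the annotated start of Tigar and of Pfkp are shown because these genes had the smallest p-values of the set in females with fold changes of opposite sign. They are RefSeq sequences of build GRCm38.p6, read 5′ to 3′ along the gene, from the minus strand at chr6:127109553-127109802 and chr13:6648772-6649021. Capitals mark GC boxes, the letters GGGCGG on either strand.
Tigar: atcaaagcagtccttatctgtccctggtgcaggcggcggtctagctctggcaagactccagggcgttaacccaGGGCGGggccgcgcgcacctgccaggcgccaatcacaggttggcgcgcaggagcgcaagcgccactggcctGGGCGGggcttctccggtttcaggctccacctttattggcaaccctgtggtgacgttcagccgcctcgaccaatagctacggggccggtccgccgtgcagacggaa
Pfkp: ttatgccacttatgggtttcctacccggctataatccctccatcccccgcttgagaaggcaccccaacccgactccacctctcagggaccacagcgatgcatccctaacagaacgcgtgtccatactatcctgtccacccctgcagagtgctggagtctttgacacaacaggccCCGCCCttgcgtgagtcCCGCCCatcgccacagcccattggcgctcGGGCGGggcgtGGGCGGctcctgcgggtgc
Tigar held 2 GC boxes and Pfkp 4, and 32.7% of the 32851 promoters of the same length in the table held at least 1. Neither window held the hypoxia-element core ACGTG (16.6% of promoters), the E-box CACGTG, which contains that core (6.02%), or a p53 half-site (7.13%). All 4 motifs were searched on both strands, and a match or its absence concerns these letters in this window alone.

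Pfkl (ENSMUSG00000020277), the liver form, was at the low end in SMC mice of both sexes. Male sham spanned 6.68, 9.15 and 11.3 CPM (lowest, median, highest) and male SMC 7.26, 7.70 and 8.12 CPM. Female sham spanned 7.22, 9.56 and 10.6 CPM and female SMC 6.41, 8.30 and 9.02 CPM. All 12 SMC mice lay below the median of the sham mice of their sex, although the ranges overlapped. The log2 fold changes were -0.22 in males (edgeR FDR 0.50) and -0.21 in females (FDR 0.493), and their mean was -0.22 (SE 0.084, 95% interval -0.39 to -0.04, unadjusted p 0.0162, edgeR FDR 0.170). Counts of Pfkl were 172 to 340 per library, the thinnest of the set beside Pfkp and Pfkfb2. Pfkm, which carries nearly all of the family's reads, had log2 fold changes of 0.09 in males and 0.06 in females (edgeR FDR 0.842 and 0.885).

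Pfkfb1 (ENSMUSG00000025271), whose muscle and liver isoforms arise from alternative starts that gene counts do not separate, spanned 57.7, 79.2 and 87.3 CPM (lowest, median, highest) in female sham and 43.7, 59.7 and 70.1 CPM in female SMC. All 6 SMC females lay below the sham median, and 3 of 6 lay below the lowest sham female. In males it spanned 38.0, 61.7 and 83.2 CPM in sham and 43.8, 58.1 and 61.2 CPM in SMC, again with all 6 SMC mice below the sham median. The fitted differences were -0.35 in females (95% interval -0.67 to -0.03, unadjusted p 0.0329) and -0.16 in males (95% interval -0.48 to 0.16), and the mean of both was -0.26 (SE 0.11, unadjusted p 0.0282, edgeR FDR 0.216). None of these passed the threshold.

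Pfkfb3 (ENSMUSG00000026773) varied most between mice, with a coefficient of variation of 49.3% over the 24 mice, against 15.6% for Pfkl. Male sham spanned 374, 428.5 and 1368 CPM (lowest, median, highest) and male SMC 558, 827 and 1068 CPM. All 6 SMC males exceeded the sham median, and the highest value of the males belonged to sham replicate 4. Female sham spanned 163, 521 and 810 CPM and female SMC 353, 649 and 1455 CPM, with the lowest in sham replicate 7 and broad overlap. The fitted log2 fold changes were 0.37 in males (95% interval -0.41 to 1.156) and 0.58 in females (95% interval -0.20 to 1.36), with edgeR FDR values of 0.785 and 0.575. Without the 2 libraries of low slow fibre score they were 0.74 in males and 0.40 in females (edgeR FDR 0.356 and 0.568), and the mean of both sexes went from 0.48 (FDR 0.367) to 0.57 (FDR 0.153).

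Pfkfb4 (ENSMUSG00000025648) had negative fold changes in both sexes. Male sham spanned 34.5, 38.3 and 78.6 CPM (lowest, median, highest) and male SMC 30.2, 33.1 and 44.3 CPM, with 5 of 6 SMC males below the lowest sham male. Female sham spanned 19.6, 36.5 and 74.8 CPM and female SMC 26.0, 32.3 and 41.8 CPM, which lay wholly within the sham range. The highest value of the males was that of sham replicate 4 and the highest of the females that of sham replicate 7. The fitted differences were -0.38 in males and -0.39 in females (edgeR FDR 0.600 and 0.551), and their mean was -0.38 (SE 0.17, unadjusted p 0.0335, edgeR FDR 0.233). Without those 2 libraries the mean was -0.15 (edgeR FDR 0.540).

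Pfkfb2 (ENSMUSG00000026409) had group medians of 11.9 CPM in male sham, 12.1 in male SMC, 11.8 in female sham and 10.1 in female SMC. Its log2 fold changes were 0.01 in males (95% interval -0.31 to 0.33) and -0.11 in females (95% interval -0.43 to 0.21), by edgeR.

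Fbp2 (ENSMUSG00000021456), whose product is the fructose 1,6-bisphosphatase of muscle, spanned 16.7, 26.1 and 59.1 CPM (lowest, median, highest) in male sham and 18.6, 21.9 and 33.1 CPM in male SMC. It spanned 28.6, 38.6 and 54.7 CPM in female sham and 25.7, 32.1 and 66.1 CPM in female SMC. The male groups lay mostly below the female groups, since 4 of 6 sham males were below the lowest sham female and 4 of 6 SMC males below the lowest SMC female. The highest male value, 59.1 CPM, belonged to sham replicate 4. The difference of males from females was -0.41 in sham (edgeR FDR 0.454) and -0.62 in SMC (SE 0.25, 95% interval -1.14 to -0.10, unadjusted p 0.0221, edgeR FDR 0.358), and neither was called. Without the 2 libraries of low slow fibre score the sham difference was -0.69 (edgeR FDR 0.0957), and without female SMC replicate 21 the SMC difference was -0.38. SMC against sham gave -0.34 in males and -0.13 in females (edgeR FDR 0.684 and 0.886). Single mice moved both: the male value was -0.05 without male sham replicate 4, and the female value was -0.37 without female SMC replicate 21, the mouse at 66.1 CPM, and -0.03 without female sham replicate 11.

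**Figure D3:**
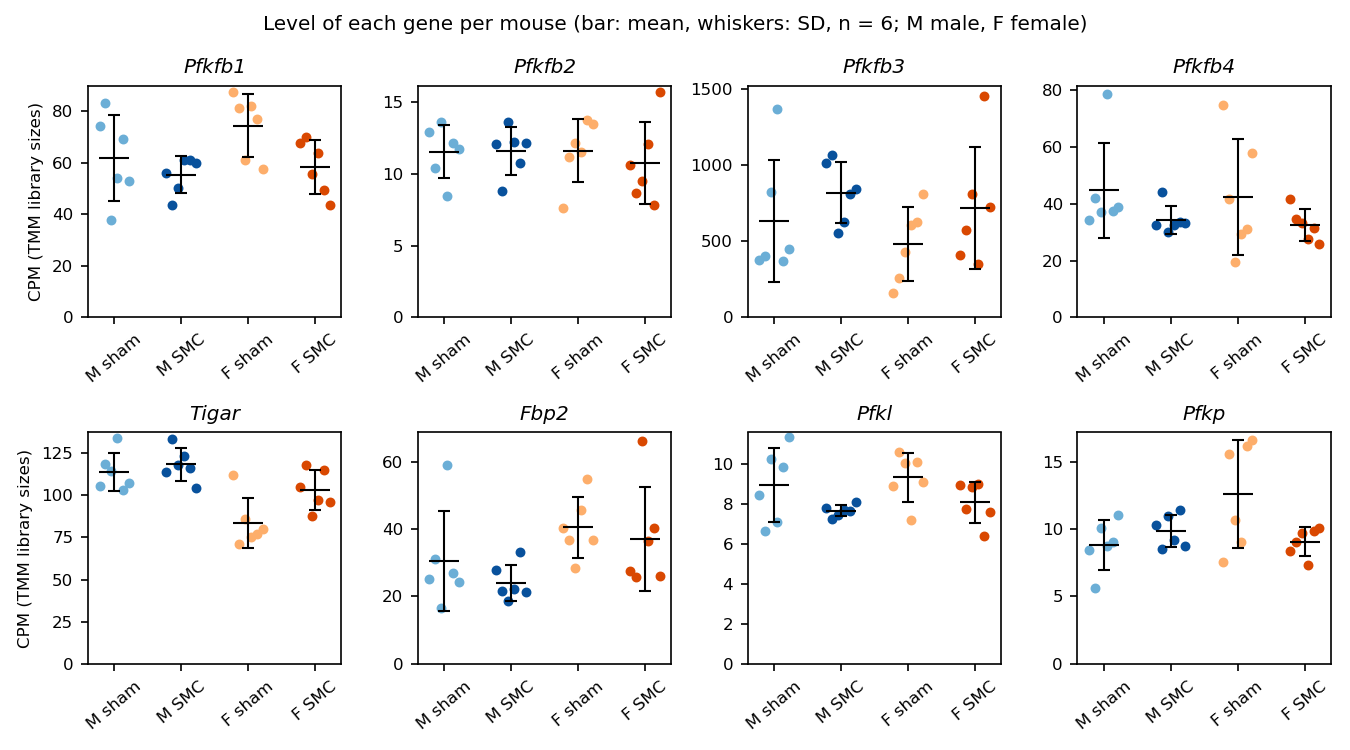
Level of each of the 8 genes in CPM (y axis, from 0) in every mouse (points, in order of replicate number) of the 4 groups (x axis, M male, F female), with the mean and SD of 6 mice. The sham females of Tigar sit at 71.0 to 86.0 CPM apart from 1 mouse at 112, and the 6 SMC females sit at 88.0 to 118.

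The levels were also set against the slow fibre score of the same mouse, after the group means had been subtracted. Over all 24 mice, as planned with libraries of low score already known, 3 of the 8 genes passed an adjusted p of 0.05. Pearson's r was 0.76 for Pfkfb2 (permutation p 4.0e-04 after Benjamini-Hochberg adjustment over the 8 genes), -0.76 for Pfkfb4 (adjusted permutation p 0.00384) and -0.76 for Tigar (adjusted permutation p 0.00397), and Spearman's rho was 0.76, -0.69 and -0.51 (adjusted permutation p 5.6e-04, 0.00156 and 0.0326). Because 2 mice stood apart from the rest in this score, the relation was also taken over the other 22. There r for Pfkfb4 and Tigar kept its sign but was smaller and no longer passed, so its size over 24 mice depended on those 2 mice. Pfkfb2 still moved with the score, with Pearson's r of 0.66 (permutation p 0.00113, adjusted 0.00904) and Spearman's rho of 0.66 (permutation p 0.00254, adjusted 0.0203). With the 2 mice farthest from the median score of these 22 left out, r was 0.70 over 20 mice. Pfkfb4 had r of -0.38 (permutation p 0.0519, adjusted 0.208) and rho of -0.53 (permutation p 0.0117), whose adjusted permutation p ran from 0.0452 to 0.05004 over 11 sets of permutations, on both sides of the threshold of 0.05. Tigar had r of -0.40 (permutation p 0.0998, adjusted 0.266) and rho of -0.37 (permutation p 0.122, adjusted 0.249). The other 5 genes had r between -0.32 and 0.22, with adjusted permutation p-values from 0.296 to 0.843. Pfkfb2 was at 8.44 and 7.65 CPM in the 2 mice of low score, the lowest of their groups. In the same 2 mice Pfkfb4 and Tigar were the highest of their groups, with Pfkfb4 at 78.6 and 74.8 CPM and Tigar at 134 and 112 CPM. The 2 did not share this for Pfkfb3, which was the highest of its group in male sham replicate 4, at 1368 CPM, and the lowest in female sham replicate 7, at 163 CPM.

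**Figure D4:**
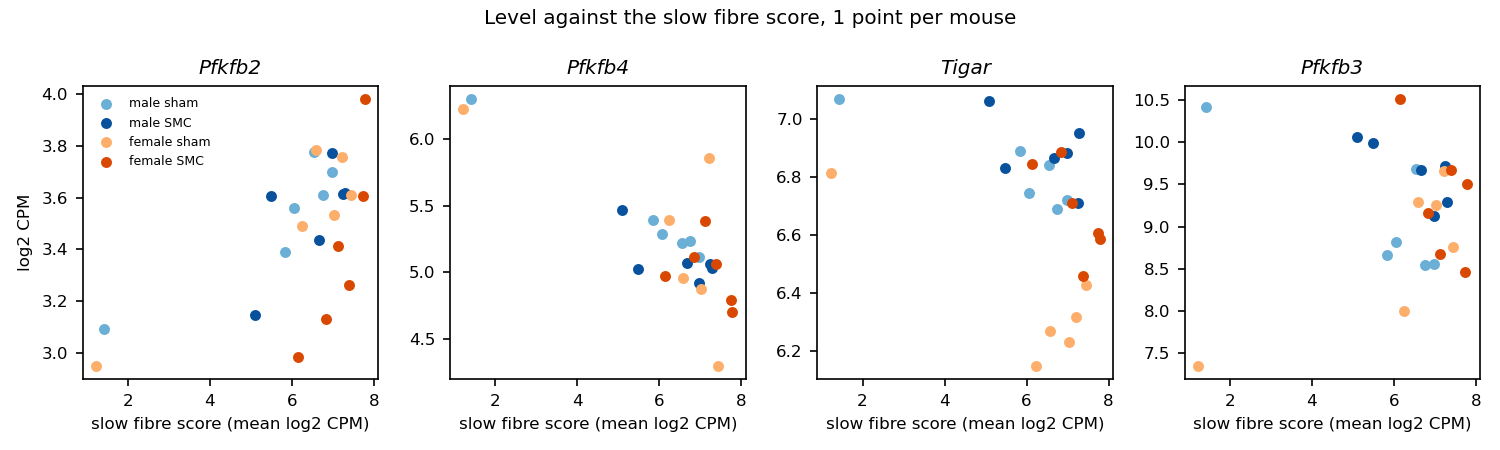
Log2 CPM (y axis) of Pfkfb2, Pfkfb4, Tigar and Pfkfb3 against the slow fibre score, the mean log2 CPM of 10 markers (x axis), with 1 point per mouse coloured by group. Male sham replicate 4 and female sham replicate 7 are the 2 points at scores of 1.42 and 1.22, and the other 22 lie between 5.09 and 7.78.

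Genes around the control point were counted by list. Of 18 other enzymes of glycolysis and gluconeogenesis 16 were tested and 0 were called by edgeR or DESeq2 in either sex. In males 13 were higher and 3 lower in SMC (median log2 fold change 0.08, against -0.0044 over all genes), with 1 at an unadjusted p under 0.05, and in females 10 were higher and 6 lower (median 0.05, against -0.01), with 2. Pgam2, the muscle phosphoglycerate mutase, had log2 fold changes of 0.22 in males and 0.23 in females (edgeR FDR 0.394 and 0.318). Bpgm, which makes and breaks 2,3-bisphosphoglycerate, had 0.16 and 0.17 (edgeR FDR 0.455 and 0.339). Without the 2 libraries of low slow fibre score 2 of the 16 were called higher for the mean of both sexes, where 0 were called with all 24, while calls over all genes went from 2.36% to 3.18%.

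Of the 8 pentose phosphate pathway genes, the route towards which TIGAR directs sugar, 1 was higher and 7 were lower in SMC males (median -0.11) and 2 were higher and 6 lower in SMC females (median -0.13). By edgeR and DESeq2 0 were called in either sex, with 1 and 2 at an unadjusted p under 0.05 by edgeR. Taldo1, transaldolase, had -0.21 in females (unadjusted p 0.00548, edgeR FDR 0.165). Its 6 SMC females, at 25.4 ± 1.15 CPM, all lay below the 6 sham females, at 29.5 ± 1.72 CPM. The female groups lay wholly apart in 1.03% of all genes. Rpe, ribulose-phosphate 3-epimerase, had -0.25 in males (edgeR FDR 0.332), and Pgls, 6-phosphogluconolactonase, had -0.23 in females (edgeR FDR 0.347).

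Kinases that act on PFKFB enzymes, that is AMPK subunits, protein kinase A, AKT and PDPK1, gave 8 higher and 4 lower of 12 in both sexes, with 0 called by edgeR or DESeq2 and 2 in males and 0 in females at an unadjusted p under 0.05 by edgeR. Prkag3, the gamma subunit of AMPK found in fast muscle, had 0.53 in males and 0.45 in females (edgeR FDR 0.393 and 0.430), and Prkag2 had 0.36 and -0.26 (edgeR FDR 0.333 and 0.480).

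Among 12 HIF-responsive genes, 5 were higher and 7 lower in SMC males and 3 higher and 9 lower in SMC females, with 0 called by edgeR in either sex and 1 at an unadjusted p under 0.05 in each. DESeq2 called 1 lower in males. Bnip3, a mitophagy receptor, had -0.44 in males, from 162 ± 28.3 CPM in sham to 119 ± 4.99 CPM in SMC (edgeR FDR 0.0929). These male groups did not overlap, as in 0.902% of all genes. In females Bnip3 had -0.24 (edgeR FDR 0.307). For the mean of both sexes Bnip3 fell by 0.34 on the log2 scale (SE 0.071, edgeR FDR 0.0138), the 1 call in this list (2.36% of all genes).

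The p53-responsive list, to which Tigar itself would belong, held 1 call within a sex. In SMC males 4 of 12 were higher and 8 lower, with 0 called by edgeR (4 at an unadjusted p under 0.05) and 3 called by DESeq2 (0.78% of all genes), and in SMC females 1 was higher and 11 lower, with 1 called by edgeR. That gene was Trp53inp1, a stress-induced cofactor of p53, which fell by 0.88 on the log2 scale in SMC females, from 28.9 ± 8.85 to 15.7 ± 2.87 CPM (edgeR FDR 0.0426). DESeq2 called 2 in females (1.63% of all genes), and edgeR called 3, all lower, without the 2 libraries of low slow fibre score (0.936% of all genes). Cdkn1a, the cell cycle inhibitor p21, had -1.72 in males, from 33.9 ± 20.8 to 10.3 ± 1.49 CPM (edgeR FDR 0.0929). These male groups did not overlap, as in 0.902% of all genes. In females Cdkn1a had -1.58, from 62.8 ± 43.7 to 21.1 ± 8.35 CPM (edgeR FDR 0.0638). For the mean of both sexes, where 2.36% of all genes were called, Cdkn1a fell by 1.65 (edgeR FDR 0.00363), Sesn1, a stress-induced inhibitor of mTORC1, by 0.94 (FDR 0.0215) and Trp53inp1 by 0.61 (FDR 0.0138) on the log2 scale. Tigar was on the other side of 0 in this comparison, at 0.18. Between the sexes in sham mice, where 1.97% of all genes were called, Phlda3, which restrains AKT, was higher in males by 0.71 (edgeR FDR 5.82e-04). Eda2r, a receptor of the tumour necrosis factor family, was higher in those males by 1.30 (edgeR FDR 0.0386). In SMC mice, where 1.03% of all genes were called, Phlda3 was higher in males by 0.53 (edgeR FDR 0.0103). Trp53 itself had 0.14 in SMC males and 0.17 in SMC females (edgeR FDR 0.681 and 0.534).

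**Figure D5:**
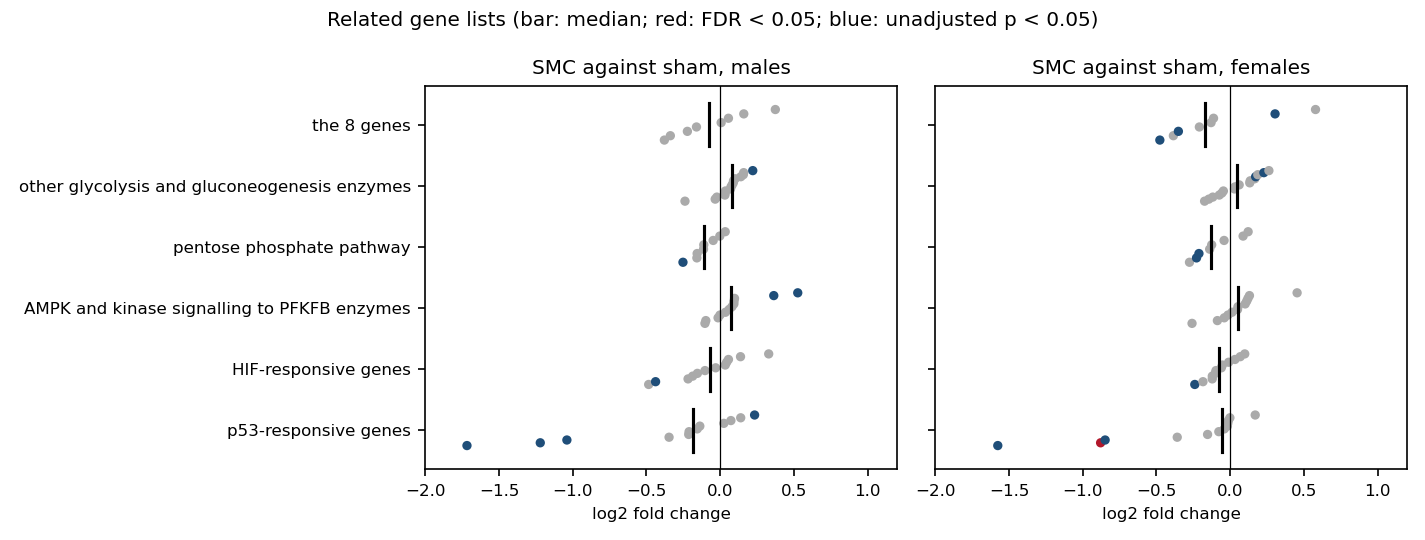
Log2 fold change of SMC against sham (x axis) of every tested gene of the 8 genes and of 5 related lists (y axis) in males and in females, with the median of each list as a black bar, red at an FDR under 0.05 and blue at an unadjusted p under 0.05. The 1 red point is Trp53inp1 in females at -0.88, and the points near -1.72 and -1.58 are Cdkn1a.

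Over the 24 mice, the genes whose log2 CPM was most like that of each member were named by Pearson's r, without a test. For Tigar these were Pfn2 (r 0.85), Hrasls (0.84) and Serinc2 (0.83), and for Pfkfb2 Zdhhc23 (0.85), Esrrg (0.85) and Gfod1 (0.84). Pfkfb3 was most like Crtc3 (0.82), Afap1 (0.80) and Nr1d1 (0.78), and Pfkfb4 most like Lrig1 (0.83), Gpt2 (0.82) and Anapc16 (0.82). Fbp2 was most like Efhc2 (0.82), Peg10 (0.80) and Myl4 (0.80), and Pfkfb1 most like Gm48586 (0.80), Gm38248 (0.80) and Epb41l5 (0.79). Pfkp was most like Map4k4 (0.79), Adam15 (0.78) and Sh3pxd2b (0.78), and Pfkl, with the weakest likeness, most like Dhrs9 (0.74), Adora2b (0.68) and Plod3 (0.65). The values of a mouse share its library, depth and scaling factor, and the mice share 4 group means.

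In GENCODE M21 exons of 4 of the 8 genes overlap exons of another gene. Pfkp shares 748 exon bases with Pitrm1 on the opposite strand, which had 796 to 1381 reads per library against 155 to 485 for Pfkp. Pfkfb1 shares 123 with Apex2 on the opposite strand, which had 523 to 1081 reads per library against 1089 to 2828 for Pfkfb1. Pfkfb2 shares 154 with Yod1 on the opposite strand, which had 178 to 513 reads per library against 157 to 522 for Pfkfb2. It also shares 1262 with Gm29427 on its own strand (0 to 7 reads per library). Tigar shares 122 with Platr31 on the opposite strand (1 to 26 reads per library). The libraries were strand-specific, but the strand setting of the counting was not given in the sources used here, so reads of these pairs may not be fully separated.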

How the data were processed

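Total RNA of gastrocnemius was depleted of ribosomal RNA and made into directional libraries. The authors deposited raw counts of reads per Ensembl gene, unnormalized, 1 column for each mouse. The submitters' processing notes name cutadapt 1.16, STAR 2.7.9a, featureCounts 1.6, DESeq2 1.34.0 and build GRCm39. Neither the release of the annotation nor the strand option of the counting is given in the sources used here. Groups follow the labels for sex and housing, 6 mice in each, and 0 columns lacked a sample. Of 55416 genes, 52083 had a symbol and an exon length in GENCODE M21, matched by identifier, and the rest held 0.361% of counts. That annotation is of another build, so no gene coordinates of the counts are printed.

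Genes were filtered by filterByExpr (minimum count 10) over the 4 groups, scaled by TMM (factors 0.854 to 1.32) and fitted with 1 mean per group by edgeR 4.0.16's quasi-likelihood model in R 4.3.3. The common biological coefficient of variation was 0.206. Tests were two-sided, with Benjamini-Hochberg adjustment over all 16408 genes and an FDR under 0.05 as the threshold. CPM values use TMM library sizes, CPM per kilobase divides by exon length, and log2 CPM uses a prior count of 2. Permutations of the slow fibre score, 100000 within groups, were two-sided. The alternatives were DESeq2 1.42.0, edgeR with DESeq2 size factors, at least 10 counts in every library, no filter, limma 3.58.1 voomWithQualityWeights, libraries of 1 sex alone, each library left out in turn, and the 2 libraries of low slow fibre score left out together. The pipeline was tested on simulated data. The relation to the slow fibre score was planned over all 24 mice, with r taken again without the 2 mice farthest from the median score. Earlier results of these data had by then shown libraries of low slow fibre marker level. Spearman's rho and the p-values over 22 mice, and r without a further 2, were added after seeing the data.

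The 8 genes and all lists were chosen with earlier results of these data known. Genes named beside them are Pfkm and Fbp1, the 3 genes of highest Pearson's r with each, and, in each related list, those called in a contrast and otherwise the 2 of smallest p in the SMC contrasts. Trp53 was named outside this rule, after its values were seen. Promoters were RefSeq sequences of GRCm38.p6, and all 8 genes matched.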

Additional observations from a re-analysis of the deposited data

Results flagged for a closer look

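In 5 of the 32 sets of 6 mice (8 genes in 4 groups) 1 mouse lay farther from its neighbour than Dixon's 95% critical value allows. By chance about 1 in 20 such sets, here 1.6, would be expected. Pfkfb4 was 78.6 CPM in male sham replicate 4, against 34.5 to 42.0 CPM in the other sham males, and 44.3 CPM in male SMC replicate 14, against 30.2 to 33.6 CPM in the other SMC males. Fbp2 was 59.1 CPM in male sham replicate 4, against 16.7 to 31.0 CPM, and 66.1 CPM in female SMC replicate 21, against 25.7 to 40.3 CPM. Tigar was 112 CPM in female sham replicate 7, against 71.0 to 86.0 CPM. The slow fibre score was 1.42 in male sham replicate 4, 1.22 in female sham replicate 7 and 5.09, the lowest of the other 22 mice, in male SMC replicate 14. The part of the fibre make-up in these values was not tested.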

How the results depend on the processing

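The 48 log2 fold changes of the 8 genes, taken under 8 settings other than leaving out single libraries, gave 304 values. Of these 286 kept their direction and side of the threshold, 14 changed sign and 4 passed the threshold newly. No paired analysis was possible because the labels name no pairs of mice. Without the 2 libraries of low slow fibre score, 1 gene was called for SMC in females (Tigar), 1 for the mean of both sexes (Tigar) and 2 between the sexes in sham (Tigar and Pfkp). Over all genes the share called in that fit was 0.936%, 3.18% and 3.09%, against 0.341%, 2.36% and 1.97% with all libraries. Voom called 1 for the mean of both sexes (3.30% of all genes, Tigar). The values that changed sign were, for Pfkfb2 in SMC males, -0.0047 with no filter, -0.00016 with male libraries alone and -0.077 without the 2 libraries, and for Pfkfb2 in males against females in sham 0.013 with no filter. The difference of the response between the sexes reversed for Pfkfb4 to -0.0012 (DESeq2), -0.0016 (DESeq2 size factors), -0.018 (no filter), -0.24 (voom) and -0.011 (without the 2 libraries), for Pfkfb3 to 0.43 (voom) and 0.34 (without the 2), and for Fbp2 to 0.074 (without the 2). Males against females in sham reversed for Pfkfb3 to -0.063 (voom) and -0.16 (without the 2). The cause of these reversals was not tested. Leaving out each library in turn gave 0 to 1 calls for SMC in females, 0 to 1 for the mean of both sexes and 1 to 2 between the sexes in sham, each higher count coming without female sham replicate 7. Over these fits the difference of the response ranged from -0.33 to 0.073 for Fbp2, -0.43 to 0.16 for Pfkfb3, -0.24 to 0.22 for Pfkfb4 and -0.088 to 0.065 for Pfkl. The sex difference in sham ranged from -0.093 to 0.075 for Pfkfb2, -0.14 to 0.32 for Pfkfb4 and -0.14 to 0.012 for Pfkl, and SMC in males from -0.077 to 0.076 for Pfkfb2. The share of Pfkm was 99.3% by CPM not divided by length. Over all genes DESeq2 called more than edgeR: 58 higher and 70 lower against 0 for SMC in males, 114 and 154 against 20 and 36 in females, 371 and 407 against 169 and 219 for the mean of both sexes, 233 and 342 against 137 and 187 between the sexes in sham, and 171 and 151 against 112 and 57 in SMC. Pfkfb2, Pfkl and Pfkp have the fewest reads of the 8 genes, so their relative counting error is the largest. Their spread between mice was not the largest. The coefficient of variation was 18.2%, 15.6% and 26.4%, against 49.3% for Pfkfb3.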
